A study of Mus musculus with 8 samples.

Results

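The 35 collagen chain genes taken here were matched by symbol among the 35275 genes counted in 8 mouse tumours, and each was found once. All 8 tumours came from a conditional mouse model with floxed Nf2 and Cdkn2a alleles, in which adenovirus carrying Cre recombinase was injected into the peritoneal cavity. The 4 primary peritoneal tumours numbered 13, 14A, 59 and 61 also carry floxed Pak2 and are labelled Nf2-/-, Cdkn2a-/- and Pak2-/-. Tumour 14B has the same genotype label and is labelled a secondary tumour. The 3 primary peritoneal tumours 19, 20 and 127 are wild-type for Pak2 and labelled Nf2-/-, Cdkn2a-/- and Pak2 +/+. Nf2 encodes Merlin and Cdkn2a encodes cell cycle inhibitors, so every tumour shares the loss of both by label. Cre reaches the cells the virus infects, and a bulk tumour also holds cells of the host. The labels give no age, do not say whether each tumour came from its own mouse or whether 14A and 14B share a mouse, and the p-values given here reflect only the spread among these samples, which may be technical.

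Total counts ranged from 13469851 to 20402401 per tumour. Pak2 itself was transcribed in all tumours, from 131 to 238 CPM in the 4 primary Pak2-null-labelled tumours and 239 CPM in tumour 14B, against 90.1 to 128 CPM in the 3 wild-type tumours (CPM, counts scaled to the size of the library). The Pak2 label was therefore not borne out by lower Pak2 counts. Counts per gene do not show a missing exon, so tumours with that label are called Pak2-null-labelled here. Nf2 and Cdkn2a, labelled -/- in every tumour, were also transcribed. Nf2 stood at 74.6 to 118 CPM in the primary Pak2-null-labelled tumours, 86.9 CPM in tumour 14B and 104 to 142 CPM in wild-type tumours. Cdkn2a stood at 3.89 to 5.70, 6.43 and 2.37 to 3.15 CPM in the same order. Xist, transcribed in female cells, stood at 0.0619 to 1.33 CPM in the primary Pak2-null-labelled tumours and 0 CPM in tumour 14B. In the wild-type tumours Xist stood at 26.6 to 459 CPM. Ddx3y, from the Y chromosome, stood at 85.4 to 104 CPM in the primary Pak2-null-labelled tumours and 84.2 CPM in tumour 14B. In wild-type tumours 19, 20 and 127 Ddx3y stood at 1.62, 1.24 and 116 CPM. Tumour 127 thus held both transcripts, and sex and label cannot be told apart. Counts of exocrine pancreas enzymes took 2.33% of the library of tumour 14A and 12.9% of that of tumour 14B, and at most 0.0052% of any other. Mesothelial markers were present but low: their 8 genes summed to 10.3 to 358 CPM in the primary Pak2-null-labelled tumours, 246 CPM in tumour 14B and 35.3 to 299 CPM in the wild-type tumours.

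Collagens are the main proteins of the extracellular matrix. Each molecule is a triple helix of chains that repeat glycine at regular places, and the chains are joined inside the cell, secreted, trimmed and crosslinked. Fibrillar collagens such as types I, III and V build tensile fibrils, type IV builds the sheet of basement membranes, type VI forms beaded filaments, and the FACIT collagens sit on the surface of fibrils. In tumours, fibroblasts are the best known source of fibrillar collagens, and sarcoma-like tumour cells can make them too.

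The promoters of a basement membrane pair, which kept a steady ratio, and of the type VIII pair, whose ratio differed between the labels, are shown because the results turn on both. Promoter windows of 300 bases from RefSeq on GRCm38.p6, with 250 bases before and 50 after the annotated start, were found for 28 of the 35 genes, the others being Col1a1, Col2a1, Col4a3, Col5a2, Col9a3, Col12a1 and Col14a1. Col4a1 (chr8:11312777-11313076, minus strand) and Col4a2 (chr8:11312555-11312854, plus strand) are transcribed away from each other. Capitals mark the 78 bases that lie in both windows, read on opposite strands.
Col4a1: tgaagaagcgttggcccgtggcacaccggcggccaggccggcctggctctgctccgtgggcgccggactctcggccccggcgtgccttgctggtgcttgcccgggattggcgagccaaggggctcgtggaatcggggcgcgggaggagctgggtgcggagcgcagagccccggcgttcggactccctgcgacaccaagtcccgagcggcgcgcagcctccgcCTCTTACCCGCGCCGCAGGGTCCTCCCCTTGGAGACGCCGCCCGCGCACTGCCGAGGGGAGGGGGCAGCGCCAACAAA
Col4a2: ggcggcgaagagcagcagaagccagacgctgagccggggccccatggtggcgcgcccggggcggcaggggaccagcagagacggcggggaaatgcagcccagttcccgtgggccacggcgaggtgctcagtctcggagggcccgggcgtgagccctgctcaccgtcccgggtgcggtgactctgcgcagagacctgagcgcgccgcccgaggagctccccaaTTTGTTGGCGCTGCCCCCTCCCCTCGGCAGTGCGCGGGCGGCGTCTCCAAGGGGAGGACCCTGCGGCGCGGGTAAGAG

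Col8a1 (chr16:57754688-57754987, minus strand) and Col8a2 (chr4:126286544-126286843, plus strand) encode the chains of type VIII collagen, the short-chain network of vessel walls and of the basement membrane under the corneal endothelium. In these windows capitals mark each GC box, GGGCGG or its reverse complement CCGCCC.
Col8a1: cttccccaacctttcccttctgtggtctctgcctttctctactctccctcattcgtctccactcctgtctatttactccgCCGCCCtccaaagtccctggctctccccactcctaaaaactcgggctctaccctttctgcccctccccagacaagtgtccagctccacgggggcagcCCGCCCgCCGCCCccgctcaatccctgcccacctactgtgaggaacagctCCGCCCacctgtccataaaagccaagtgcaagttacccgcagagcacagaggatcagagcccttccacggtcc
Col8a2: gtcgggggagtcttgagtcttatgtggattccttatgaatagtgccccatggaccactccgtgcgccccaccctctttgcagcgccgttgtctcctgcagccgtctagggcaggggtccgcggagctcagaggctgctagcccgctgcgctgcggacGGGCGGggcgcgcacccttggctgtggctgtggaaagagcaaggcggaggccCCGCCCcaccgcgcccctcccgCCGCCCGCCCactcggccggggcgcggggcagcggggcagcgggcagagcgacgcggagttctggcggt

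Both type VIII promoters hold 4 GC boxes, with the last 2 of Col8a2 overlapping. Among the 31 windows of collagen genes (some genes have more than 1 start), 19 held a GC box (61.3%), against 35.7% of all 32851 windows. A CCAAT box, searched as CCAAT on both strands, was in 38.7% of the collagen windows and 37.4% of all windows, Col4a1 and Col4a2 among them. A TATA box, searched as TATAAA, was in 16.1% against 13.6%. The motif GGAATG, bound by the TEAD partners of the Merlin-restrained activator YAP, was in 12.9% against 14.7%, in windows of Col3a1, Col4a6, Col6a2 and Col18a1. A match describes these letters and not a site in use.

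Type I and type III collagen made up most collagen transcripts in each of the 8 tumours. Measured per length, as CPM per kilobase of the deposited gene length, Col1a1, Col1a2 and Col3a1 held 69.9%, 60.2%, 72.4% and 74.5% of the total over the 35 genes in tumours 13, 14A, 59 and 61. They held 64.2% in tumour 14B, and 73.9%, 71.1% and 68.6% in wild-type tumours 19, 20 and 127. The mean level of Col1a1 was 1036 CPM per kilobase in the primary Pak2-null-labelled tumours and 1025 in the wild-type tumours. Next in level were Col6a1 (198 and 256 CPM per kilobase), Col5a2 (157 and 171) and Col6a2 (142 and 192), in the same order of groups. Col6a1 was above Col6a2 in each of the 8 tumours, by 1.29-fold to 1.58-fold, while the place of Col5a2 among them changed between tumours. The lowest mean in the Pak2-null-labelled tumours was that of Col9a1 (0.00808 CPM per kilobase), and the lowest in the wild-type tumours that of Col4a3 (0.330).

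**Figure D1:**
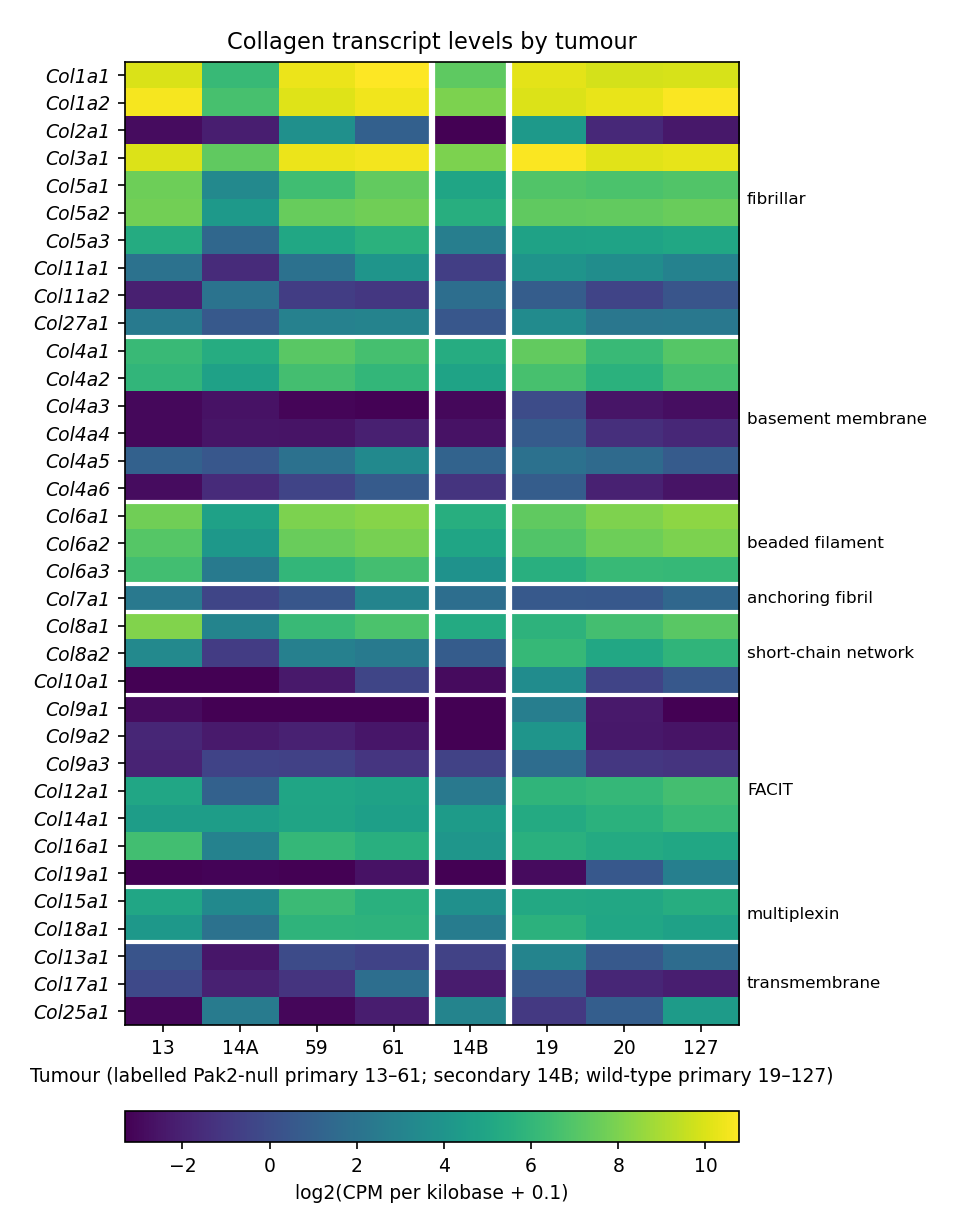
Level of each of the 35 collagen genes, as log2 of CPM per kilobase plus 0.1 (colour), in each tumour (columns), with genes grouped by structural class and white lines between classes and groups. Tumours 14A and 14B are darker than the others over most fibrillar and all 3 beaded filament genes, and tumour 19 is lighter than the others at Col9a1, Col9a2 and Col10a1.

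The collagen total set the tumours numbered 14A and 14B apart from the other 6. The 35 genes took 2.76%, 0.307%, 3.23% and 3.77% of all counts in tumours 13, 14A, 59 and 61, and 0.428% in tumour 14B. They took 3.25%, 2.75% and 3.20% in wild-type tumours 19, 20 and 127. Tumour 14A was the lowest of the 7 primary tumours by a wide margin, and the other 6 lay close together whatever their label.

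Col1a1, the main chain of type I collagen, stood at 5913, 425, 7839 and 10386 CPM in tumours 13, 14A, 59 and 61, 926 CPM in tumour 14B, and 6910.0, 5549.8 and 5779 CPM in wild-type tumours 19, 20 and 127. Col3a1, of the thinner type III fibrils, stood at 5802, 897, 7398 and 8171 CPM, then 1407 CPM in tumour 14B, and 9339, 6323 and 6822 CPM in the wild-type tumours in the same order. For both genes the groups overlapped, with tumour 14A below every wild-type tumour and at least 1 of the other Pak2-null-labelled tumours within the wild-type range or above it. Tumour 14A was 13.1-fold below the lowest of the other 6 primary tumours for Col1a1, 10.4-fold for Col1a2 and 6.47-fold for Col3a1. Over the 8 fibrillar genes other than Col2a1 and Col11a2, it was between 3.28-fold and 16.5-fold below that tumour. Tumour 14B was between 2.82-fold and 7.33-fold below it over the same genes.

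Of the 31 collagen genes tested, 18 (58.1%) were more than 3-fold below the lowest of the other 6 primary tumours in tumour 14A, against 5.57% of all genes tested. In both 14A and 14B 13 (41.9%) were, against 1.53% of all genes tested. This rule was chosen after the values were seen, and it has no test, since the tumours numbered 14 are 1 primary and 1 secondary sample. Col4a1 and Col4a2 of basement membranes were 1.78-fold and 1.94-fold below the lowest other primary tumour in 14A, a smaller gap than in any of those 8 fibrillar genes. Col14a1, a FACIT chain of mature connective tissue, was level with the lowest other tumour, at 145 CPM in 14A and 148 CPM in tumour 13. Col11a2 went the other way. This cartilage-type fibrillar chain stood at 24.6 CPM in 14A and 19.8 CPM in 14B, and at 0.805 to 10.01 CPM in the other 6 tumours.

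**Figure D2:**
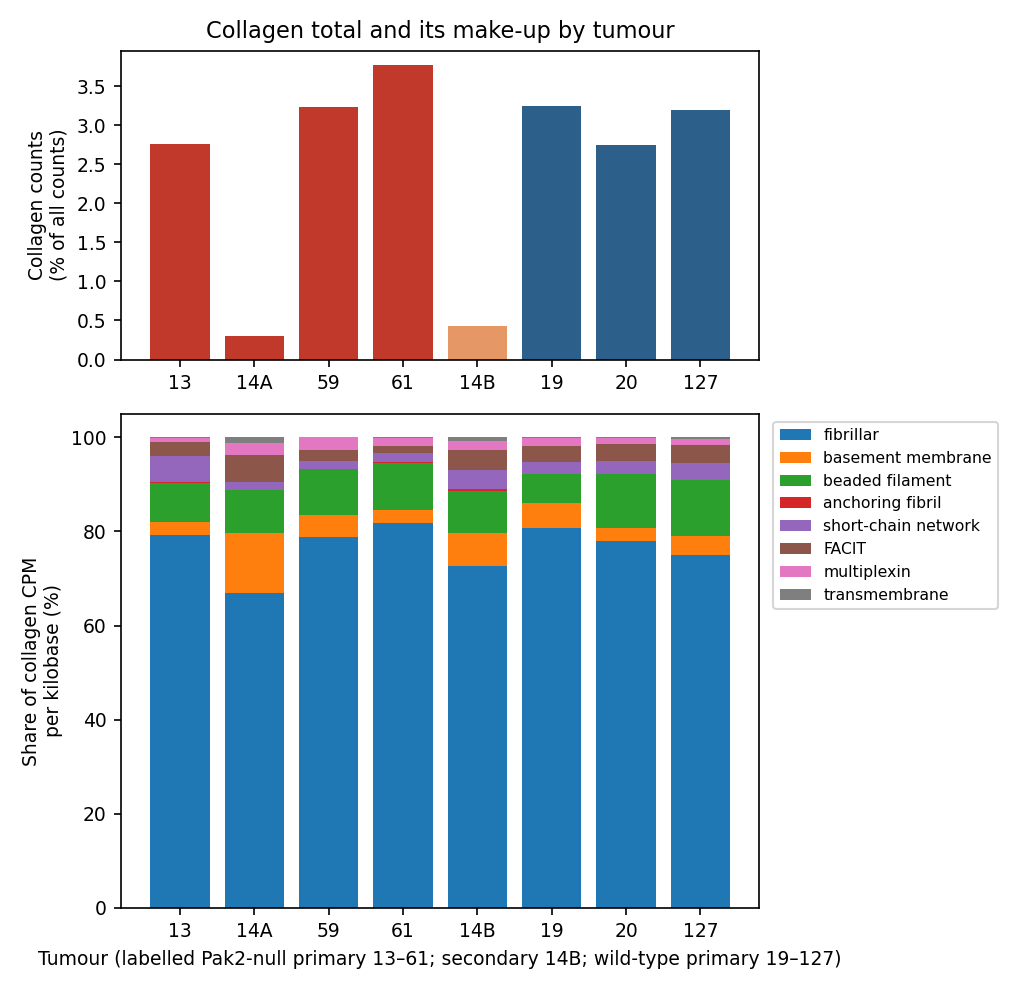
Upper bars give the counts of the 35 collagen genes as a percentage of all counts in each tumour. Lower bars divide the collagen CPM per kilobase of each tumour among the structural classes (percent). Tumours 14A (0.307%) and 14B (0.428%) had the lowest totals, and fibrillar chains made up 66.9% or more of the collagen total in each tumour.

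The make-up of the collagen total also differed in these tumours. Fibrillar chains held 66.9% of the collagen total in tumour 14A and 72.6% in tumour 14B, against 75.0% to 81.8% in the other 6 tumours. Basement membrane chains held 12.7% in tumour 14A and 7.13% in tumour 14B, against 2.70% to 5.25% in the others. The sum of the fibroblast markers was also lowest in these tumours, and 7 of the 9 genes were lowest of all 8 tumours in both. The 9 genes summed to 6133, 973, 4569.9 and 4981 CPM in tumours 13, 14A, 59 and 61, 1549.8 CPM in tumour 14B, and 3034, 5259 and 2414 CPM in wild-type tumours 19, 20 and 127. Of the other fibroblast markers, Thy1 stood at 89.6 CPM in tumour 14A and 146 CPM in tumour 14B, above 56.2 CPM in tumour 127, and Pi16 at 34.1 and 28.7 CPM was above tumours 13, 59 and 61. The 7 macrophage markers did not move as one. Their sum was highest there, at 6676 CPM in tumour 14A and 6287 CPM in tumour 14B, against 1008 to 2959.9 CPM in the other 6, and most of it came from C1qa and C1qb. In both tumours 4 of the 7 (Adgre1, Cd68, C1qa and C1qb) were higher than in any other, while Mrc1 was lowest of all 8 in tumour 14A, at 48.8 CPM, and Csf1r, at 368 CPM, was below tumours 13, 59, 61 and 19. The part of these cell types, and of the pancreas transcripts in both tumours, in the collagen levels was not tested, and in bulk samples fewer cells of a type cannot be told apart from less RNA per cell.

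Between the labels, the question was whether collagen transcription differed in Pak2-null-labelled tumours, and no collagen gene passed the test. At an adjusted p under 0.05 (edgeR's quasi-likelihood F-test, Benjamini-Hochberg over 15412 genes), 0 of 31 collagen genes were called, against 11 (0.0714%) of all genes tested. Of all genes tested 0.0195% were called higher and 0.0519% lower in Pak2-null-labelled tumours. The other 4 members (Col4a3, Col9a1, Col9a2 and Col19a1) did not pass the filter on low counts, which asks for counts in several tumours, and were high in at most 2. At an unadjusted p under 0.05 there were 5 of 31 (16.1%), against 12.9% of all genes tested. These 5, Col4a4, Col8a2, Col10a1, Col13a1 and Col14a1, all had lower means in the Pak2-null-labelled tumours. Of all genes tested, 8.55% were below 0.05 in that direction and 4.39% in the other. Col10a1 passed the filter on low counts largely through the wild-type tumours, so its direction was partly set by the filter. DESeq2 called 4 of the 5, Col4a4, Col8a2, Col13a1 and Col14a1 (7.71% of its genes were called). Limma-voom called 0 (0.162% of all genes) and limma-voom with quality weights called Col8a2 and Col14a1 (6.16% of all genes called, and 25.0% at an unadjusted p under 0.05). Without tumours 14A and 19, a choice made after seeing the data, edgeR called Col8a2 (2.58% of all genes called, and 22.9% at an unadjusted p under 0.05). It called 0 collagen genes without tumour 14A alone (0.0530% of all genes) or without tumour 19 alone (0.370%).

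The median log2 fold change, labelled Pak2-null over wild-type, was -0.32 over the 31 collagen genes and 0.06 over all genes tested. Negative values were found in 21 of the 31 (67.7%), against 45.5% of all genes tested. Leaving out tumour 14A moved the collagen median to -0.01 and that of all genes to -0.01. Col1a1 had a log2 fold change of 0.03 (SE 0.87, adjusted p = 0.992 by edgeR), which ran from -0.33 to 0.42 with 1 tumour left out at a time. The fold changes of Col1a2 and Col3a1 were -0.32 (SE 0.80) and -0.41 (SE 0.70), or 0.06 and -0.06 without tumour 14A (adjusted p = 0.892 and 0.841 by edgeR with all 7 primary tumours).

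**Figure D3:**
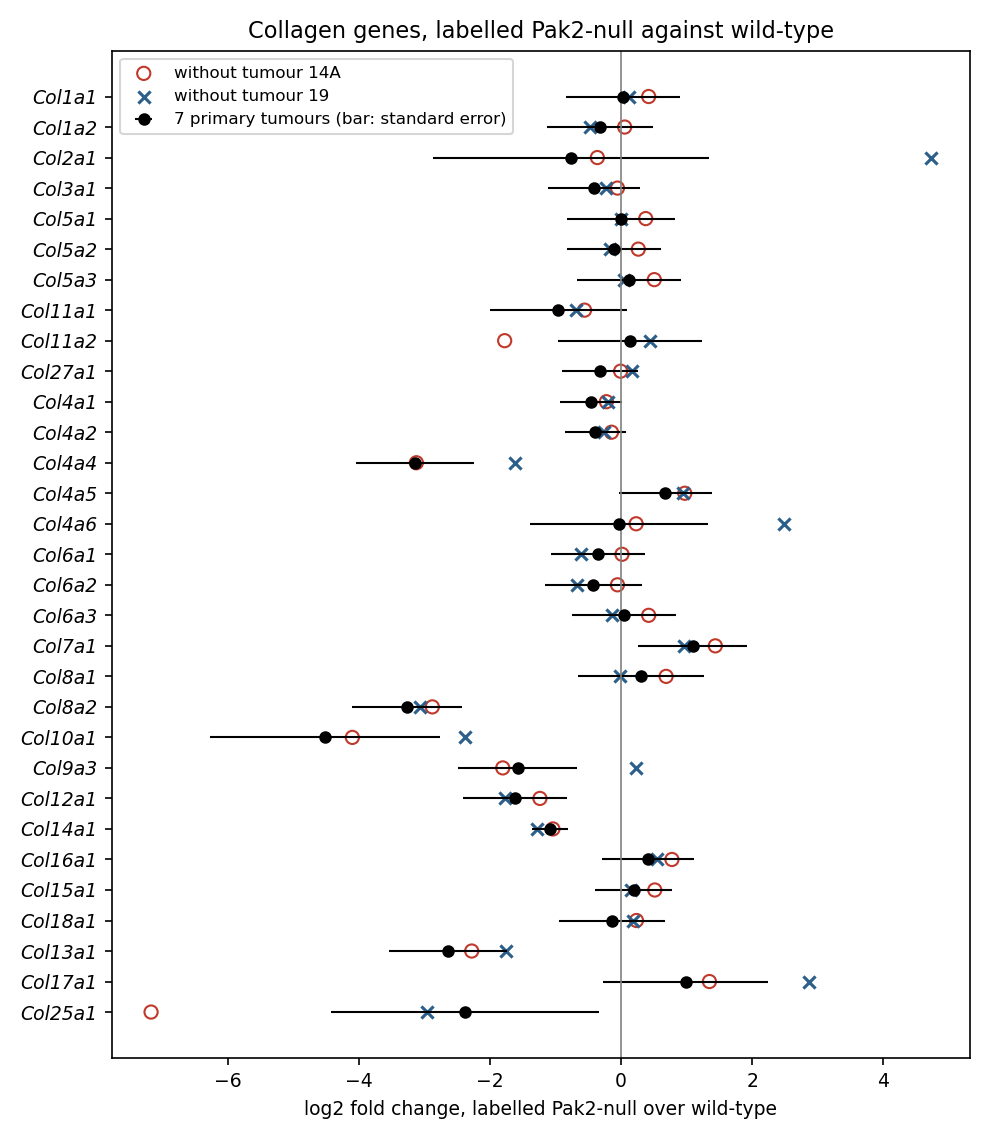
Log2 fold change of the 31 tested collagen genes, labelled Pak2-null over wild-type, from 4 against 3 primary tumours (filled points, bars give the standard error), and the same without tumour 14A (open circles) or without tumour 19 (crosses). Most abundant chains sit near 0, Col8a2 and Col14a1 keep their place in all 3 settings, and Col2a1, Col4a6, Col10a1, Col17a1 and Col25a1 move widely.

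Among the other fibrillar chains, those of type V, which sits inside type I fibrils and limits their width, had groups that overlapped. Col5a1 stood at 1722, 83.6, 727 and 1387 CPM in tumours 13, 14A, 59 and 61, 258 CPM in tumour 14B, and 1033, 936 and 1029 CPM in wild-type tumours 19, 20 and 127. Its wild-type values lay within the range of the Pak2-null-labelled tumours, with group means of 980.0 ± 726 and 999 ± 54.8 CPM (SD, n = 4 and 3). On the log2 scale Col5a2 differed by -0.11 (SE 0.71) and Col5a3 by 0.12 (SE 0.79). Col11a1, a chain of cartilage fibrils also made in many tumour stromas, averaged 45.9 ± 53.4 CPM in the Pak2-null-labelled tumours and 89.7 ± 30.97 CPM in the wild-type tumours. Col27a1, a long fibrillar chain of cartilage, averaged 41.6 ± 22.1 and 52.6 ± 26.8 CPM in the same order, and all 10 fibrillar genes had log2 fold changes between -0.96 and 0.13.

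Col8a2, the less abundant type VIII chain in all but 1 tumour, was lower in every Pak2-null-labelled tumour than in any wild-type tumour. It stood at 42.9, 2.06, 30.2 and 22.5 CPM in tumours 13, 14A, 59 and 61 and at 6.95 CPM in tumour 14B, against 304, 152 and 259 CPM in wild-type tumours 19, 20 and 127. The primary groups did not overlap, and tumour 14A was the lowest. Its log2 fold change was -3.26 (SE 0.84), with adjusted p = 0.150 by edgeR (Benjamini-Hochberg), ran from -3.69 to -2.88 with 1 tumour left out, and had adjusted p from 0.00231 to 0.383 over 17 alternatives. The gene lies on chromosome 4 (GRCm38, 126286793 to 126314330, plus strand).

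Its partner Col8a1 did not follow it. Col8a1 stood at 1431, 41.7, 379 and 558 CPM in tumours 13, 14A, 59 and 61, 202 CPM in tumour 14B, and 277, 482 and 737 CPM in wild-type tumours 19, 20 and 127, with groups that overlapped (log2 fold change 0.30, SE 0.96, adjusted p = 0.922 by the same edgeR test). Within each tumour, Col8a1 over Col8a2 per length was 28.3, 17.2, 10.7 and 21.0 in tumours 13, 14A, 59 and 61 and 24.6 in tumour 14B. In wild-type tumours 19, 20 and 127 it was 0.773, 2.70 and 2.41. Tumour 19 thus had more Col8a2 than Col8a1, and the Pak2-null-labelled tumours had 10.7 to 28.3 times as much Col8a1 as Col8a2. This ratio was chosen after the values were seen and has no test. Col10a1, a network chain of hypertrophic cartilage, had 0, 0, 5 and 36 counts in tumours 13, 14A, 59 and 61, 1 in tumour 14B, and 762, 32 and 67 in the wild-type tumours. Its log2 fold change was -4.52 (SE 1.76, adjusted p = 0.339 by the same edgeR test) and -2.38 without tumour 19. That direction was partly set by the filter on low counts. Col10a1 lies inside Nt5dc1 on the other strand, and with no stated strand setting the counts of the 2 genes cannot be told apart.

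**Figure D4:**
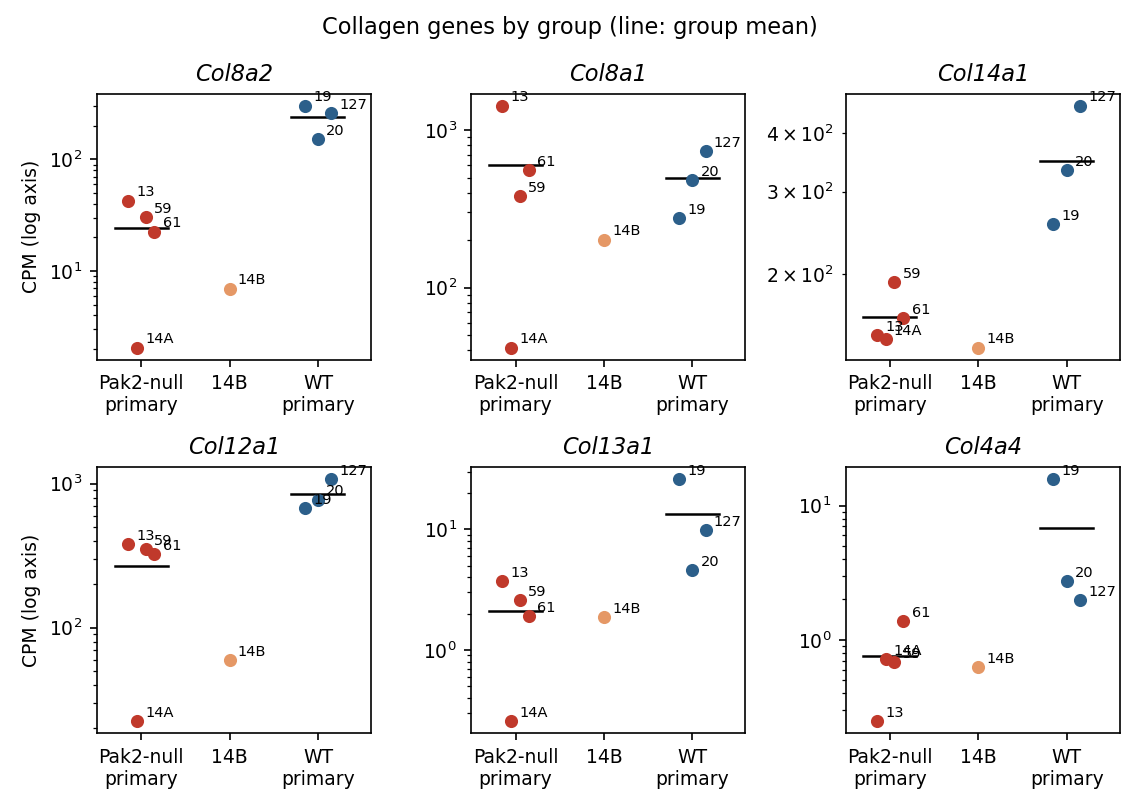
CPM (log axis) of 6 collagen genes in each tumour, with points for the 4 primary Pak2-null-labelled tumours, tumour 14B and the 3 wild-type tumours, and a line at each group mean of the primary tumours. The primary groups do not overlap for Col8a2, Col14a1, Col12a1, Col13a1 and Col4a4, and they overlap for Col8a1.

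Of the FACIT chains, which decorate fibrils, Col14a1 and Col12a1 also had groups that did not overlap. Col14a1 stood at 148, 145, 192 and 161 CPM in tumours 13, 14A, 59 and 61 and 139.5 CPM in tumour 14B, against 255, 334 and 458 CPM in wild-type tumours 19, 20 and 127. Its spread within the Pak2-null-labelled tumours was small (162 ± 21.6 CPM, against 349 ± 102 CPM in wild-type, SD, n = 4 and 3). Its log2 fold change was -1.09 (SE 0.27, adjusted p = 0.142 by edgeR (Benjamini-Hochberg)), and its adjusted p ran from 0.00373 to 0.402 over 17 alternatives. Col12a1 stood at 379, 22.5, 353 and 323 CPM in tumours 13, 14A, 59 and 61, 59.3 CPM in tumour 14B, and 678, 775 and 1074 CPM in wild-type tumours 19, 20 and 127. Tumours 13, 59 and 61 were close to each other and below every wild-type tumour, with 14A lower still (log2 fold change -1.62, SE 0.79, adjusted p = 0.451 by the same edgeR test, and -1.24 without tumour 14A). Col16a1, a FACIT chain of many connective tissues, averaged 278 ± 184 CPM in the Pak2-null-labelled tumours and 212 ± 38.7 CPM in wild-type tumours.

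In all, 5 tested collagen genes had primary groups that did not overlap: Col4a4, Col8a2, Col12a1, Col13a1 and Col14a1, each lower in the Pak2-null-labelled tumours. That is 16.1% of 31, against 8.93% of all genes tested that were lower without overlap, 5.07% that were higher and 14.0% in either direction. Col14a1 lies on chromosome 15 (55307750 to 55520803, plus strand) and Col12a1 on chromosome 9 (79598991 to 79718831, minus strand).

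The basement membrane chains come in pairs of neighbouring genes that are transcribed away from each other, and the ratio within a pair varied more in some than in others. Col4a1 and Col4a2, whose starts lie 21 bases apart in the deposited table and which form the common type IV molecule, kept a near constant ratio per length, from 1.199 to 1.68 over all 8 tumours. Col4a1 stood at 491, 276, 945 and 654 CPM in tumours 13, 14A, 59 and 61, 275 CPM in tumour 14B, and 1114, 496 and 865 CPM in wild-type tumours 19, 20 and 127. The groups overlapped, with log2 fold changes of -0.46 (SE 0.48) for Col4a1 and -0.40 (SE 0.47) for Col4a2. Endothelial markers, whose cells line vessels and rest on this membrane, summed to 242 to 614 CPM in the primary Pak2-null-labelled tumours, 592 CPM in tumour 14B and 315 to 759 CPM in the wild-type tumours over 7 genes. These genes did not go together in tumours 14A and 14B, where Pecam1 was the highest of all 8 tumours at 438 and 451 CPM and Cdh5 (46.8 and 40.2 CPM) and Emcn (3.44 and 7.67 CPM) were the lowest.

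Col4a3 and Col4a4, the chains of kidney and lung basement membranes, have starts 72 bases apart and were low. Col4a4 had 4, 14, 11 and 24 counts in tumours 13, 14A, 59 and 61 and 6 in tumour 14B, against 340, 44 and 31 in wild-type tumours 19, 20 and 127. Col4a3 had 3, 10, 2 and 1 counts, 2 in tumour 14B, and 161, 10 and 6 in the wild-type tumours, so both were highest in tumour 19. The log2 fold change of Col4a4 was -3.15 (SE 0.90, adjusted p = 0.184 by edgeR (Benjamini-Hochberg)) and -1.62 without tumour 19. Col4a5 and Col4a6, the X-linked pair with starts 1309 bases apart, went together less closely. Col4a5 over Col4a6 per length ranged from 5.70 to 54.2 in the primary Pak2-null-labelled tumours, was 6.44 in tumour 14B, and ranged from 2.19 to 23.4 in the wild-type tumours. On the log2 scale Col4a5 differed by 0.67 (SE 0.71) and Col4a6 by -0.04 (SE 1.36), labelled Pak2-null over wild-type.

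Among the type VI chains Col6a1 and Col6a2 kept similar proportions across tumours. Col6a1 and Col6a2, tandem genes on the same strand whose products join with Col6a3 into beaded filaments around cells, kept a ratio per length of 1.29 to 1.58 in the primary Pak2-null-labelled tumours, 1.45 in tumour 14B and 1.29 to 1.34 in the wild-type tumours. Col6a1 stood at 849.5, 110.5, 1057 and 1225 CPM in tumours 13, 14A, 59 and 61, 189 CPM in tumour 14B, and 651, 1106 and 1387 CPM in wild-type tumours 19, 20 and 127. All 3 genes were lowest in 14A among the primary tumours, by 5.89-fold to 8.67-fold, and their log2 fold changes were between -0.42 and 0.04. Col1a1 over Col1a2, which join in type I collagen, ranged more widely than Col6a1 over Col6a2, at 0.648, 0.712, 1.22 and 1.23 in tumours 13, 14A, 59 and 61, 0.618 in tumour 14B, and 1.11, 0.739 and 0.595 in wild-type tumours 19, 20 and 127. Col3a1 and Col5a2, neighbours on chromosome 1, had a ratio of 4.72 to 8.44 in the primary Pak2-null-labelled tumours, 5.63 in tumour 14B and 6.49 to 10.4 in the wild-type tumours.

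**Figure D5:**
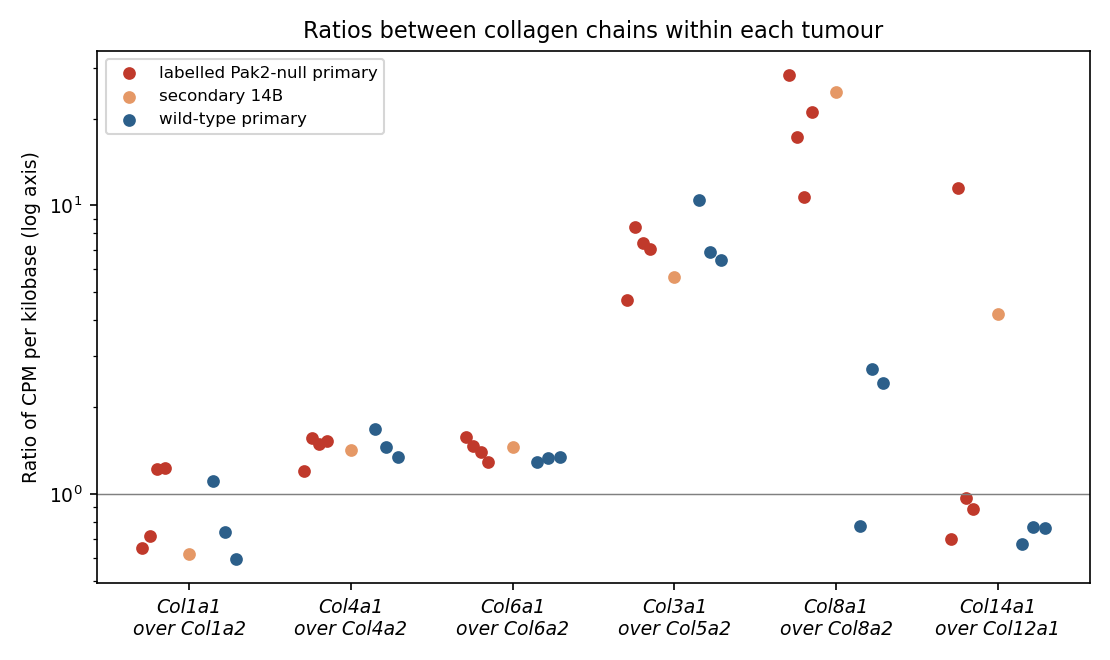
Ratio of CPM per kilobase between 2 collagen chains (log axis) within each tumour, with points for primary Pak2-null-labelled tumours, tumour 14B and wild-type primary tumours. Col4a1 over Col4a2 and Col6a1 over Col6a2 vary little between tumours, and Col8a1 over Col8a2 is 10.7 or more in every Pak2-null-labelled tumour and 2.70 or less in the wild-type tumours.

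Several low collagen genes, some of them cartilage chains, set wild-type tumour 19 apart. Col9a1 and Col9a2, FACIT chains of cartilage fibrils, had 524 and 1007 counts there. In the other 7 tumours they had at most 6 and 9 counts, so tumour 19 was 65.2-fold and 83.8-fold above the highest of these in CPM. Col4a3, also untested, was 12.02-fold above, Col10a1 8.22-fold, Col4a4 5.77-fold and Col9a3 5.16-fold (9.55 CPM). More than 3-fold above the highest of the other 7 tumours were 3 of 31 tested collagen genes (9.68%), Col4a4, Col9a3 and Col10a1, against 0.941% of all genes tested, a rule chosen after the values were seen. Other cartilage chains were highest elsewhere. Col11a1 stood at 124 CPM in tumour 61 and 120 CPM in tumour 19, and Col11a2 at 24.6 CPM in tumour 14A and 10.01 CPM in tumour 19.

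Col2a1, the main fibrillar chain of cartilage, was shared between the labels. It had 3, 13, 1125 and 171 counts in tumours 13, 14A, 59 and 61 and 0 in tumour 14B, against 2199, 17 and 7 in wild-type tumours 19, 20 and 127. Tumours 59 and 19, of opposite labels, were therefore the high ones, and its log2 fold change of -0.76 (SE 2.11) became 4.73 without tumour 19. Other cartilage genes were not all high in the same tumour. Hapln1, a link protein of cartilage, stood at 0.154 to 1.16 CPM in the primary Pak2-null-labelled tumours, 0.8293 CPM in 14B, and 16.7, 1.61 and 1.28 CPM in wild-type tumours 19, 20 and 127. Acan and Comp, a cartilage proteoglycan and a matrix protein of cartilage and tendon, were highest in tumour 127, at 42.3 and 145 CPM. The 7 cartilage markers summed to 2.21 to 11.7 CPM in the primary Pak2-null-labelled tumours, 3.94 CPM in tumour 14B and 32.2 to 193 CPM in the wild-type tumours. Only 3 of the 7 passed the filter on low counts, and Acan and Hapln1 did so largely through the wild-type tumours. All 3 were lower at an unadjusted p under 0.05 (8.55% of all genes tested were), a direction therefore partly set by the filter. Snorc had at most 2 counts in any tumour, and Acan was at 0 in 14A. The part of cartilage-like cells in these values was not tested.

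The transmembrane collagens and Col19a1 varied widely from tumour to tumour. Col25a1, a membrane collagen that mouse muscle needs for its motor nerve supply, stood at 0.124, 39.1, 0.123 and 0.809 CPM in tumours 13, 14A, 59 and 61, 54.1 CPM in tumour 14B, and 2.78, 11.9 and 145 CPM in wild-type tumours 19, 20 and 127. It was high in the tumours numbered 14 and in 127, with overlapping groups and a log2 fold change of -2.38 (SE 2.04) that became -7.17 without tumour 14A. Col19a1, a FACIT-like chain made by developing muscle, had 0, 1, 0 and 6 counts in tumours 13, 14A, 59 and 61 and 0 in tumour 14B, against 4, 120 and 560 in wild-type tumours 19, 20 and 127. Col13a1, a membrane collagen of the neuromuscular junction and of other cell contacts, stood at 3.72, 0.257, 2.59 and 1.91 CPM in tumours 13, 14A, 59 and 61 and 1.87 CPM in 14B, against 26.1, 4.59 and 9.82 CPM in the wild-type tumours. Its groups did not overlap (log2 fold change -2.65, SE 0.90, adjusted p = 0.265 by edgeR (Benjamini-Hochberg), and -1.76 without tumour 19). Skeletal muscle markers and Col19a1 were both highest in tumours 20 and 127. The 10 marker genes summed to 12.1 to 705 CPM in the primary Pak2-null-labelled tumours, 19.4 CPM in tumour 14B, and 2503, 28519.9 and 21899 CPM in wild-type tumours 19, 20 and 127. In tumour 19 their sum was above that of every Pak2-null-labelled tumour, while Col19a1 had 4 counts there and 6 in tumour 61. Of these markers 9 of 9 tested were below an unadjusted p of 0.05, all lower, against 8.55% of all genes tested. The untested Tnnc2 was near 0 everywhere, with 0 counts in every Pak2-null-labelled tumour and 5, 4 and 1 in the wild-type tumours. Their part in Col13a1, Col19a1 and Col25a1 was not tested, and Col25a1 was also at 39.1 and 54.1 CPM in tumours 14A and 14B, where these markers were low.

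The remaining members had groups that overlapped. Col7a1, which makes the anchoring fibrils of skin, stood at 46.9, 6.32, 11.5 and 74.5 CPM in tumours 13, 14A, 59 and 61, 31.1 CPM in tumour 14B, and 13.4, 12.5 and 23.6 CPM in wild-type tumours 19, 20 and 127. Tumours 61 and 13 were the highest, and the log2 fold change was 1.09 (SE 0.83). Col17a1, of the hemidesmosomes of epithelia, was highest in tumour 61 (18.8 CPM) and had a log2 fold change of 0.98 (SE 1.26). The multiplexins Col15a1 and Col18a1 belong to vessel and muscle basement membranes, and Col18a1 is the source of endostatin. Col15a1 and Col18a1 averaged 221 ± 147 and 213 ± 170.2 CPM in the Pak2-null-labelled tumours. In wild-type tumours they averaged 197 ± 23.8 and 237 ± 86.4 CPM (SD, n = 4 and 3). Col18a1 overlaps Slc19a1 on the other strand, so with no stated strand setting its counts are uncertain.

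Genes that make, export, trim and receive collagens had no called member either, in 5 lists. The enzymes that hydroxylate and glycosylate the chains had a median log2 fold change of -0.01 over 15 genes, with 1 below an unadjusted p of 0.05 (12.9% of all genes tested were). That gene was P3h2, a prolyl 3-hydroxylase known from type IV collagen, at 4.18 ± 1.603 CPM in the Pak2-null-labelled tumours and 14.0 ± 3.99 CPM in wild-type tumours (log2 fold change -1.72, SE 0.40, adjusted p = 0.126 by edgeR (Benjamini-Hochberg)). On the log2 scale P4ha2 and Colgalt2 were at -0.78 (SE 0.60) and -1.12 (SE 0.76). P4hb, the most abundant of them, averaged 965 ± 324 CPM in the Pak2-null-labelled tumours and 909 ± 493 CPM in wild-type tumours.

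Of 9 folding and export genes 1 was below an unadjusted p of 0.05 (12.9% of all genes tested were), and the median of the 9 was 0.11. Serpinh1, the collagen chaperone Hsp47, stood at 1625, 181, 1102 and 1676 CPM in tumours 13, 14A, 59 and 61, 349 CPM in tumour 14B, and 1947, 1362 and 1647 CPM in wild-type tumours 19, 20 and 127. It was low in the tumours in which the fibrillar chains were low. Tmem38b, a channel gene of the endoplasmic reticulum, had a log2 fold change of -2.16 (SE 0.56), and Creb3l1 and Ctage5 were at -0.82 (SE 0.47) and 0.46 (SE 0.29).

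Among 12 tested genes of procollagen trimming and crosslinking 1 was below an unadjusted p of 0.05 (12.9% of all genes tested were), and the median of the 12 was 0.20. Pcolce2, an enhancer of procollagen cleavage, averaged 7.22 ± 2.79 CPM in the Pak2-null-labelled tumours and 23.6 ± 15.1 CPM in wild-type tumours. Adamts14 and Loxl3, a procollagen peptidase and a lysyl oxidase, had log2 fold changes of 1.93 and 1.88, with adjusted p = 0.434 and 0.490 by edgeR (Benjamini-Hochberg). Loxl1 stood at 1732, 111, 558 and 563 CPM in tumours 13, 14A, 59 and 61, 284 CPM in tumour 14B and 378, 525 and 637 CPM in the wild-type tumours, again lowest in 14A.

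Of 9 tested collagen receptors 1 was below an unadjusted p of 0.05 (12.9% of all genes tested were), and the median of the 9 was 0.18. Itga11, an integrin of fibrillar collagens, stood at 8.61, 3.19, 21.0 and 24.2 CPM in tumours 13, 14A, 59 and 61 and 2.07 CPM in tumour 14B, against 38.8, 78.8 and 114 CPM in wild-type tumours 19, 20 and 127, with no overlap (log2 fold change -2.42, SE 0.70, adjusted p = 0.184 by the same edgeR test). Lair1 and Itga1, an immune inhibitory receptor and a basement membrane integrin, were at log2 fold changes of 1.40 (SE 0.69) and -0.86 (SE 0.47), and the shared integrin chain Itgb1 was at 0.21 (SE 0.46). The 14 basement membrane partners of type IV collagen had a median of -0.35, and 3 were below an unadjusted p of 0.05, all lower (8.55% of all genes tested were). These 3 were the laminin chains Lama5, Lamb3 and Lama3, which differed on the log2 scale by -1.36 (SE 0.35), -3.47 (SE 0.93) and -1.34 (SE 0.53). Nid1, which links laminin to type IV collagen, averaged 1196 ± 953 CPM in the Pak2-null-labelled tumours and 385 ± 58.0 CPM in wild-type tumours, with tumour 14A lowest of all at 121 CPM.

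No marker gene of another cell type was called. The summed levels of the cartilage, skeletal muscle, and smooth muscle and pericyte lists lay apart between the primary groups. Smooth muscle and pericyte markers summed to 199 to 746 CPM in the primary Pak2-null-labelled tumours, 191 CPM in 14B and 1206 to 4135 CPM in wild-type tumours. Of these 7 genes 5 were below an unadjusted p of 0.05, all lower, against 8.55% of all genes tested. Adipocyte markers summed to 26.4 to 174 CPM, 75.2 CPM and 116 to 777 CPM in the same order over 5 genes, with primary groups that overlapped. Of these 5 genes 2 (Fabp4 and Lep) were below an unadjusted p of 0.05, both lower, against 8.55% of all genes tested. Lep passed the filter on low counts largely through the wild-type tumours, so its direction was partly set by the filter. Fibroblast markers summed to 973 to 6133 CPM in the primary Pak2-null-labelled tumours and 2414 to 5259 CPM in wild-type tumours. At an unadjusted p under 0.05 there were 1 of 9 higher and 2 of 9 lower (4.39% and 8.55% of all genes tested). At the same threshold there were 1 of 7 endothelial, 0 of 8 mesothelial, 0 of 7 macrophage and 0 of 3 tested exocrine pancreas genes, against 12.9% of all genes tested. The part of these cells in the lower Col8a2, Col12a1 and Col14a1 values of the Pak2-null-labelled tumours was not tested.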

How the data were processed

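RNA was sequenced from 8 mouse tumours. The authors deposited raw counts of reads for each gene and tumour, beside gene coordinates and a length. STAR, HTSeq, GRCm38 and mm10 are named in the submitters' processing notes, without versions. The strand setting is not given in the sources used here. All 8 count columns belong to the samples, and no entry lacks a gene.

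Genes passing filterByExpr (minimum count 10, minimum total 15; 15412 of 35275) in the 7 primary tumours were tested with edgeR 4.0.16 in R 4.3.3 (TMM, quasi-likelihood test, Benjamini-Hochberg adjustment at 0.05, no covariate), after a check on simulated data. Log2 fold changes are Pak2-null-labelled over wild-type, with a standard error (SE) equal to the size of the fold change divided by the root of its F statistic. CPM uses TMM factors over all 8 tumours. With no counts in a tumour up to 3 could have been missed (0.139 to 0.193 CPM in primary tumours, 0.311 in 14B), which covers counting error only. Alternatives used limma 3.58.1 and DESeq2 1.42.0. BLAST 2.17.0 (95% identity over 200 bases) matched Col4a3 and Col9a3 to the overlapping genes C430014B12Rik and Tcfl5 and no other collagen gene to another gene, so their counts are uncertain.

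The members and lists were chosen with earlier results of these data known. Any member may be named, with all tumours' values for up to 3 members per class by level and by p, for both chains of each pair, and for genes said to be picked after viewing. Related lists gave up to 3 genes by lowest p and their most abundant gene per length. The lists are chain hydroxylation and glycosylation, folding and export, processing and crosslinking, receptors, basement membrane partners, and markers of fibroblast, cartilage, skeletal muscle, smooth muscle and pericyte, endothelium, mesothelium, macrophage, adipocyte and exocrine pancreas.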

Additional observations from a re-analysis of the deposited data

Results flagged for a closer look

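In 7 of 31 collagen genes checked, tumour 14A stood apart from the other 3 primary Pak2-null-labelled tumours by its gap on the log2 CPM scale, taken as a part of the group's range. The gap was 0.873 for Col1a2, 0.845 for Col3a1, 0.916 for Col5a2, 0.855 for Col5a3, 0.848 for Col6a1, 0.864 for Col6a3 and 0.943 for Col12a1, each above Dixon's critical value for 4 samples. In each of these genes tumour 14A was the lowest. Chance alone marks about 1 in 20 groups, and these genes share the same 4 tumours. The check was run on the collagen genes only, so the share of all genes in which tumour 14A stands apart this way is not known.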

How the results depend on the processing

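No paired analysis was possible because the labels give the groups no shared replicate numbers. Each gene's fold change was refitted under 17 alternatives, of which leaving out tumours 14A and 19 together was chosen after seeing the data. Over all genes, edgeR's 11 calls became 4 with robust fitting or with tumour 14B as its own group, 25 by limma-voom, 1149 by DESeq2, 950 by limma-voom with quality weights and 401 without tumours 14A and 19, and 0 to 59 with 1 tumour left out. Collagen calls, 0 by edgeR, became 4 by DESeq2, 2 by limma-voom with quality weights and 1 (Col8a2) without tumours 14A and 19, and stayed at 0 with any 1 tumour left out. Collagen genes at an unadjusted p under 0.05 were 5 of 31 by edgeR. They became 9 of 35 without the filter or with 14B added. Both settings let in Col4a3, Col9a1, Col9a2 and Col19a1, all among the 9, and their counts over all genes are not given here. Without tumours 14A and 19 there were 8 of 32. With 1 tumour left out they ran from 3 of 32 (without tumour 19) to 9 of 31 (without 14A). Over all genes tested, 1995 of 15412 were below this threshold by edgeR and 3562 of 15570 without tumours 14A and 19. Without tumour 19 alone there were 2396 of 15926, and without 14A alone 2543 of 15086. Of 46 gene fold changes, 22 changed sign under at least 1 alternative, and none of those was called by edgeR. Among the collagen genes, Col4a4, Col6a2, Col7a1, Col8a2, Col10a1, Col11a1, Col12a1, Col13a1 and Col14a1 kept their sign in all 17. Of these only Col7a1 was higher in the Pak2-null-labelled tumours, with log2 fold changes from 0.418 to 1.438 over the 17. With limma-voom, the log2 fold change was -0.63 for Col1a1, -0.50 for Col5a3, -0.88 for Col11a2, 0.13 for Col4a6, -0.53 for Col6a3, -0.43 for Col8a1, -0.026 for Col16a1 and -0.13 for Col15a1. With limma-voom with quality weights, the log2 fold change was 3.54 for Col2a1, 0.019 for Col3a1, 0.037 for Col5a2, -0.99 for Col11a2, 0.36 for Col27a1, 0.24 for Col4a1, 0.21 for Col4a2, 1.84 for Col4a6, -0.012 for Col6a3, -0.20 for Col8a1 and 0.45 for Col18a1. With tumours 14A and 19 left out, the log2 fold change was 5.15 for Col2a1, 0.14 for Col3a1, 0.41 for Col5a1, 0.22 for Col5a2, -1.44 for Col11a2, 0.50 for Col27a1, 0.059 for Col4a1, 0.017 for Col4a2, 2.77 for Col4a6, 0.029 for Col9a3 and 0.57 for Col18a1. With median-of-ratios factors, the log2 fold change was 0.001 for Col5a1. With no filter, the log2 fold change was 0.006 for Col5a1. With DESeq2, the log2 fold change was 0.001 for Col5a1. With tumour 14B added as its own group, the log2 fold change was 0.008 for Col5a1. With 1 tumour left out at a time it ran from -0.33 to 0.42 for Col1a1, from -0.58 to 0.055 for Col1a2, from -3.27 to 4.73 for Col2a1, from -0.43 to 0.38 for Col5a1, from -0.32 to 0.26 for Col5a2, from -0.19 to 0.51 for Col5a3, from -1.78 to 0.51 for Col11a2, from -0.55 to 0.17 for Col27a1, from -0.16 to 0.97 for Col4a5, from -1.03 to 2.49 for Col4a6, from -0.61 to 0.014 for Col6a1, from -0.21 to 0.42 for Col6a3, from -0.60 to 0.69 for Col8a1, from -2.04 to 0.23 for Col9a3, from -0.29 to 0.51 for Col15a1, from -0.53 to 0.23 for Col18a1, from -0.46 to 2.87 for Col17a1 and from -7.17 to 0.45 for Col25a1. The cause of these shifts was not tested. Without division by gene length, 7 of the 32 class shares and chain ratios moved by more than the spread between tumours.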
